A study of Mus musculus with 30 samples.

Results

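The BCL2 family decides whether a cell's mitochondria release the factors that start apoptosis. The transcripts of 10 mouse family members were followed here: the BH3-only genes Bik, Bbc3 (PUMA), Pmaip1 (NOXA), Bcl2l11 (BIM) and Bmf, the pore-forming effector genes Bax and Bak1, and the anti-apoptotic genes Bcl2, Bcl2l1 (BCL-XL) and Mcl1. They were taken as a listed set, by symbols mapped from the Ensembl identifiers. All 10 were among the 49315 genes in the files, and all 10 passed the filter on low counts with 19323 genes in all.

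RNA was sequenced from 30 cultures of C57BL/6 mouse fetal testis. Testes were dissected free of the mesonephros on gestational day 14 and kept for 24 h on culture inserts. The 4 groups were DMSO vehicle (n = 15), the phthalate monoester MEHP (mono-(2-ethylhexyl) phthalate) at 100 µM (n = 6), all-trans retinoic acid (ATRA) at 1 µM (n = 5) and both compounds at those doses (MEHP + ATRA, n = 4). All groups carried the same DMSO dilution and no genetic modification is given in the labels. Whether 2 libraries of a group stem from different animals or litters is not said in the labels, so each p-value reflects the spread among these libraries, which may be technical. Libraries held 17551454 to 29306917 counts. Sample titles carry 2 numbers of unstated meaning, and some libraries of a group share the first. The second is below 500 in 9 vehicle libraries and in all ATRA and MEHP + ATRA libraries (the lower range). It is above 500 in 6 vehicle libraries and all MEHP libraries (the upper range). One edgeR quasi-likelihood model with group and range terms therefore set each treatment against vehicle within its own range, and a gene was called at an adjusted p under 0.05. Each marker of Sertoli, fetal Leydig and germ cells in the lists used had reads in every library.

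In healthy cells the anti-apoptotic proteins hold the effectors BAX and BAK in check. BH3-only proteins bind the groove of the anti-apoptotic proteins through a short helix, the BH3 domain, and some also bind the effectors directly. Once free, BAX and BAK open the outer mitochondrial membrane, cytochrome c leaves, and the apoptosome activates caspases. In the fetal and postnatal testis this pathway is known above all for the culling of germ cells.

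What the family shares in sequence is the BH3 core, which is encoded by a leucine codon, any 3 codons, a glycine or alanine codon and an aspartate codon. The stretches below are coding strands from GENCODE M21 transcripts (GRCm38), shown for members whose transcripts changed in these cultures and for Bax and Bcl2l11 as members whose transcripts did not pass the test. Capitals mark the core.
Bik: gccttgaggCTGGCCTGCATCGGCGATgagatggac
Bbc3: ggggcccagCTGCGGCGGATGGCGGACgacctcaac
Bcl2l11: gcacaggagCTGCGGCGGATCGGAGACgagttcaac
Bax: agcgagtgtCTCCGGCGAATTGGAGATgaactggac
Bcl2: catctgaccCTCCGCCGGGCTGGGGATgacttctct
Mcl1: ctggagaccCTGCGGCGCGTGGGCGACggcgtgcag
The Bik stretch lies in exon 3 at chr15:83543075-83543110 (plus strand) and that of Bbc3 in exon 3 at chr7:16313764-16313799 (plus strand). Those of Bcl2l11 (chr2:128147141-128147176, plus strand) and Bax (chr7:45465997-45466032, minus strand) are in exon 3 as well. Those of Bcl2 (chr1:106712575-106712610, minus strand) and Mcl1 (chr3:95659427-95659462, plus strand) are in exon 1. Over the 18 core bases, Bbc3 and Bcl2l11 had 15 in common. Bik had 13 in common with Bak1, whose stretch is not shown, and 11 with Bcl2l11 and with Mcl1. It had 10 in common with Bax and 9 each with Bbc3, Bcl2, Bcl2l1 and Bmf. The coding sequence of Pmaip1 held 2 matches to the core pattern, and each other member held 1.

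The members spanned a wide range of levels in vehicle cultures, compared between genes as CPM (library-scaled counts, TMM) per kilobase of exon length. Bax stood highest at 64.0 ± 6.2 CPM per kb (SD, n = 15), with Mcl1 next at 43.9 ± 2.5, and neither range of libraries overlapped that of the next member. Bcl2l1 (18.2 ± 2.2), Bak1 (16.9 ± 1.7), Bmf (12.8 ± 1.3), Pmaip1 (10.3 ± 4.5) and Bbc3 (10.1 ± 1.4) followed, and each of these 5 overlapped the one next to it among them. Bcl2l11, at 5.95 ± 0.48, lay below all libraries of Bbc3 and above all libraries of Bik. Bik (2.88 ± 0.51) and Bcl2 (2.32 ± 0.18) were lowest and overlapped each other. These levels placed Bax at or above 96.3% of the tested genes and Bik at or above 43.0%. Exons of Bax overlap those of Gm45808 on the same strand over 192 bases. Exons of Bak1 overlap Ggnbp1 over 614 bases and those of Bcl2 overlap D630008O14Rik over 558 bases, both on opposite strands. These overlaps are part of 1576 exon bases of Bax, 2407 of Bak1 and 9157 of Bcl2. The strand setting of the counting is not given in the sources used here, so reads within the opposite-strand overlaps cannot be told apart. Reads within the overlap of Bax and Gm45808 cannot be told apart by strand.

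**Figure D1:**
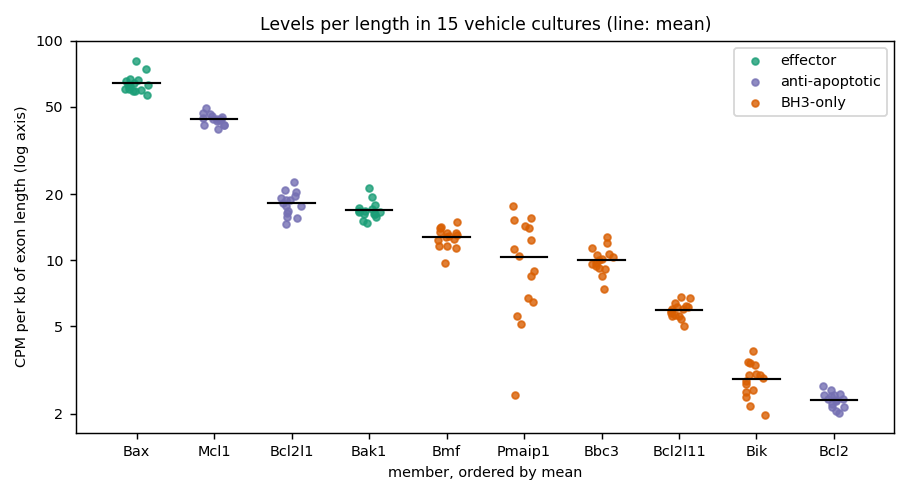
Level of each member in the 15 vehicle cultures, in CPM per kilobase of exon length on a log axis, with points for libraries, a line for the mean and colours for the role of the protein. Bax and Mcl1 lie above all other members, Bik and Bcl2 lie lowest, and the points of Pmaip1 are the most widely scattered.

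Bik was higher with MEHP, with ATRA and with both compounds, and it was the member with the largest rise in each. BIK is a BH3-only protein of the endoplasmic reticulum and mitochondria that binds BCL2 and BCL-XL. The gene (ENSMUSG00000016758) lies on chromosome 15 from 83526862 to 83544635. In vehicle, Bik had a lowest, median and highest level of 2.04, 2.76 and 3.64 CPM in the 9 lower-range libraries. The same figures were 1.87, 2.86 and 3.24 CPM in the 6 upper-range libraries. These levels rest on 33 to 82 reads per library.

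In the 6 MEHP libraries Bik ranged from 7.26 through a median of 9.09 to 10.3 CPM, with 130 to 199 reads each. The 5 ATRA libraries held 4.31, 5.58, 6.34, 4.97 and 5.004 CPM. The 4 MEHP + ATRA libraries held 14.5, 7.68, 9.77 and 10.8 CPM. No treated library overlapped a vehicle library of either range, and all 4 MEHP + ATRA libraries lay above all 5 ATRA libraries. The MEHP + ATRA libraries overlapped the MEHP libraries.

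Bik was 3.28-fold higher with MEHP (log2 fold change 1.72 ± 0.15, estimate ± SE, adjusted p = 5.6e-09). It was 1.93-fold higher with ATRA (0.95 ± 0.14, adjusted p = 9.3e-06) and 3.94-fold higher with both (1.98 ± 0.15, adjusted p = 3.6e-12). It was also 2.04-fold higher with both than with ATRA alone (1.03 ± 0.17, adjusted p = 0.00027). Each of these calls was kept in all 9 other analysis settings and in all 30 fits that left out 1 library. With both compounds against MEHP alone the difference was 0.26 ± 0.22 (95% interval −0.18 to 0.71, adjusted p = 0.59). That contrast crosses the title ranges and rests on the range term, whose value for Bik was 0.00 ± 0.15.

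The 2 single effects on Bik add up to a log2 change of 2.67, against the 1.98 measured with both. The interaction was −0.69 ± 0.23 (95% interval −1.15 to −0.22), with an unadjusted p = 0.0049 and an adjusted p = 0.63 over all genes, so it did not pass. Of the summed level per kb of the 5 BH3-only members, Bik made up a median of 6.53% in lower-range and 7.96% in upper-range vehicle libraries. That share had a median of 22.1% with MEHP, 15.0% with ATRA and 28.1% with both, and the treated shares (12.4% to 35.5%) lay above all vehicle shares (4.77% to 9.75%). The share also depends on the rest of the sum. There Pmaip1 averaged 4.855 CPM per kb with MEHP and 2.963 with both, and Bbc3 averaged 9.93 and 7.806. The sum itself overlapped between all sets of libraries, with medians from 37.1 to 44.6 CPM per kb.

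In these bulk samples, more or fewer cells of a type and more or less RNA per cell cannot be told apart. Beside the rise of Bik with MEHP, 4 of 12 Sertoli cell markers were higher and 1, Amh, lower, with a list median of 0.31 in log2 and 9 of 12 at an unadjusted p under 0.05. The summed Sertoli list ran from 2417 to 3274 CPM with MEHP and from 2521 to 4058 CPM in upper-range vehicle. With ATRA 6 Sertoli markers were higher and 2 lower, and with both 7 and 2. Of all tested genes, 2.88% were higher and 1.84% lower with MEHP, 9.06% and 9.03% with ATRA, and 14.3% and 14.7% with both. The Sertoli sum ran from 2393 to 2741 CPM with ATRA and 2206 to 3087 with both. Both lay inside the 2083 to 3112 CPM of lower-range vehicle. Between vehicle ranges (upper against lower) the Sertoli median was 0.24, with 0 called but 8 at an unadjusted p under 0.05 (edgeR). Of 8 endothelial markers, 4 were higher with MEHP (list median 0.46, with 7 of 8 at an unadjusted p under 0.05), and their sum ran from 281 to 519.6 CPM against 250.2 to 442 CPM. No marker of either list was at 0 in any library, and the part of these cells in the Bik result was not tested.

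**Figure D2:**
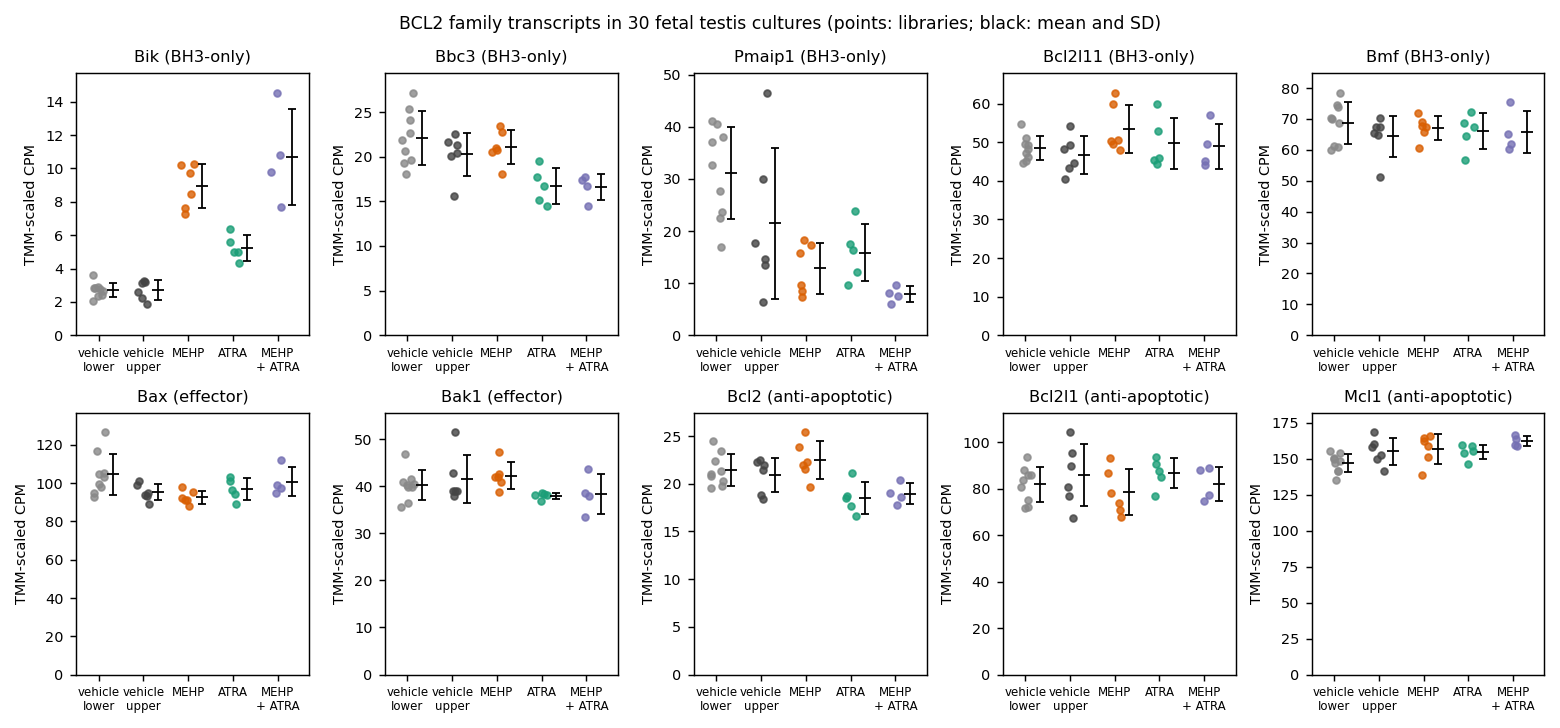
TMM-scaled CPM of each member in the 30 libraries, with vehicle split by title range, points for libraries and black marks for mean and SD. The Bik points of the 3 treated groups (4.31 to 14.5 CPM) lie above all vehicle points (1.87 to 3.64 CPM), Pmaip1 is widely spread in vehicle and lowest with both compounds, and Bcl2l11, Bmf, Bax, Bak1 and Bcl2l1 overlap across groups.

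Bbc3 was lower with ATRA, alone or with MEHP. PUMA, its product, is a BH3-only protein that binds all anti-apoptotic members and is a textbook p53 target. The gene (ENSMUSG00000002083) lies on chromosome 7 from 16308393 to 16318205. Lower-range vehicle libraries held a lowest, median and highest level of 18.01, 21.9 and 27.2 CPM. The 5 ATRA libraries held 17.8, 16.8, 15.2, 14.5 and 19.5 CPM, and 4 of the 5 were below every lower-range vehicle library.

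The 4 MEHP + ATRA libraries held 16.7, 17.7, 14.5 and 17.4 CPM of Bbc3, all below the lower-range vehicle libraries. Upper-range vehicle ran from 15.7 to 22.5 CPM, with a median of 20.9, and overlapped both. MEHP libraries ran from 18.04 through 20.9 to 23.4 CPM. Of these 6, 4 lay within the spread of upper-range vehicle and 2 above it, and all 6 lay within that of lower-range vehicle.

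Bbc3 fell by 24.3% with ATRA (log2 fold change −0.40 ± 0.09, adjusted p = 0.0021) and fell by 24.9% with both compounds (−0.41 ± 0.10, adjusted p = 0.0020). With MEHP it had 0.06 ± 0.10 (adjusted p = 0.87). With both against ATRA alone it had −0.01 ± 0.11 (95% interval −0.24 to 0.22, adjusted p = 0.98). With both against MEHP it was lower by −0.47 ± 0.14 (adjusted p = 0.029). That last call was lost without MEHP replicate 1 or 4 or without MEHP + ATRA replicate 1 or 3, at adjusted p values of 0.0502 to 0.0966.

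Beside the lower Bbc3, 5 of 8 interstitial progenitor markers were lower and 1 higher with ATRA, and the same counts held with both. Their sum ran from 4749 to 5612 CPM with ATRA and 4587 to 4943 CPM with both, against 6597 to 7168 CPM in lower-range vehicle, with no overlap. Of 10 proliferation markers, 6 were lower with ATRA (sum 1284 to 1472 CPM, against 1461 to 1663 CPM), and 2 were higher with both. Of all tested genes, 9.03% were lower and 9.06% higher with ATRA, and 14.7% and 14.3% with both. No marker of either list was at 0 in any library, and their part in the level of Bbc3 was not tested.

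Pmaip1 was lower with both compounds and with ATRA alone, the latter in a call that rested on single libraries. NOXA, its product, is a BH3-only protein that binds MCL1 above all. The gene (ENSMUSG00000024521) lies on chromosome 18 from 66458604 to 66465550. It was also the member with the widest spread in vehicle. The 9 lower-range vehicle libraries ran from 17.03 through a median of 32.7 to 41.1 CPM. The 6 upper-range ones ran from 6.43 (vehicle replicate 3) through 16.3 to 46.6 CPM (vehicle replicate 6).

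MEHP libraries ran from 7.42 through 12.7 to 18.3 CPM of Pmaip1, all within the upper-range vehicle spread. ATRA libraries held 9.59, 17.5, 23.8, 12.1 and 16.3 CPM, and 3 of the 5 were below every lower-range vehicle library. MEHP + ATRA libraries held 6.00, 9.73, 7.61 and 8.02 CPM, all below lower-range vehicle. Of these 4, 3 lay within the spread of upper-range vehicle and 1 (replicate 1) below it.

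With both compounds, Pmaip1 was 3.98-fold lower than in vehicle (log2 fold change −1.99 ± 0.37, adjusted p = 7.2e-05), a call kept in every setting and in every fit without 1 library. With ATRA alone it was 1.96-fold lower (−0.97 ± 0.31, adjusted p = 0.026). That call was lost without ATRA replicate 1 (adjusted p = 0.084) or replicate 4 (0.076), and without the range term (0.068). With MEHP it had −0.75 ± 0.32 (95% interval −1.41 to −0.08, adjusted p = 0.24), and without the range term −1.09 (adjusted p = 0.012). Leaving out vehicle replicate 6 moved the MEHP value to −0.36 (adjusted p = 0.55).

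Against ATRA alone, Pmaip1 with both compounds had −1.02 ± 0.39 (adjusted p = 0.18), which passed in a fit of only those groups (adjusted p = 0.024). Against MEHP alone it had −1.25 ± 0.47 (adjusted p = 0.11), and −1.63 (adjusted p = 0.013) without vehicle replicate 6. The interaction was −0.28 ± 0.50 (adjusted p = 1.0), with a 95% interval of −1.31 to 0.75.

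Germ cell markers were set beside Pmaip1 in the same libraries. Of 12 germ cell markers, 0 were called with MEHP (0 at an unadjusted p under 0.05, edgeR) and 0 with ATRA (2 at an unadjusted p under 0.05). The shares of all tested genes were 1.84% lower and 2.88% higher with MEHP, and 9.03% and 9.06% with ATRA. With both compounds 3 were lower, namely Tfap2c, Dnd1 and Dppa3, and 0 higher, beside 14.7% and 14.3% of all tested genes. The list median in log2 was −0.21 with MEHP, −0.01 with ATRA and −0.355 with both. Between the vehicle ranges, upper against lower, it was −0.30, with 0 called and 4 at an unadjusted p under 0.05 (edgeR). The summed germ list ran from 743 to 1479 CPM in lower-range vehicle, 865.4 to 1223 with ATRA and 734.3 to 1109 with both, and these ranges overlapped. It ran from 649.1 to 1197 CPM in upper-range vehicle and from 523.4 to 1014 CPM with MEHP, which overlapped too. Over the 15 vehicle libraries, the Pearson r of log2 CPM between Pmaip1 and a germ cell marker differed widely over the 12. It was 0.92 for Dazl, 0.91 for Dppa3, 0.75 for Pou5f1, 0.43 for Ddx4 and 0.34 for Sycp3. Stk31 had 0.18, Rnf17 0.095, Dnd1 −0.006, Tfap2c −0.11, Mael −0.29, Tdrd1 −0.38 and Tdrd9 −0.61. Over all 30 libraries r was 0.82 for Dppa3, 0.58 for Pou5f1, 0.38 for Tfap2c, 0.32 for Dazl and 0.25 for Dnd1. Stk31 had 0.17, Ddx4 0.16, Rnf17 0.05, Sycp3 0.01, Mael −0.02, Tdrd1 −0.13 and Tdrd9 −0.36. No germ cell marker was at 0 in any library, and the part of germ cells in the Pmaip1 result was not tested.

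The genes whose levels ran most like Pmaip1 over all 30 libraries, among 13044 genes compared, were Liph (Pearson r = 0.946), Tcl1 (0.932) and Six4 (0.925), with Spearman's rho of 0.933, 0.927 and 0.918. Liph encodes a phospholipase, Tcl1 a co-activator of AKT, and Six4 a homeobox transcription factor. Within the 15 vehicle libraries alone Pearson r was 0.948, 0.921 and 0.930, and Spearman's rho was 0.854, 0.814 and 0.832. These correlations describe libraries that share their treatments, title ranges and processing.

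**Figure D3:**
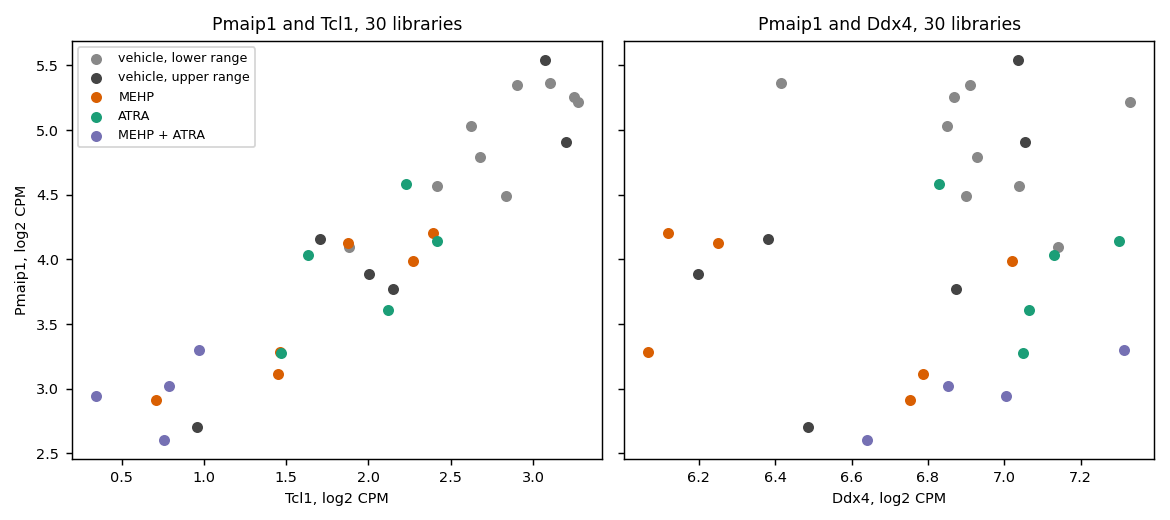
Log2 CPM of Pmaip1 against that of Tcl1 (left) and the germ cell marker Ddx4 (right) in the 30 libraries, coloured by group and title range. Pmaip1 rises with Tcl1 along 1 band that holds vehicle and treated libraries (r = 0.932), and is scattered against Ddx4 (r = 0.164). Germ cell markers differed in this respect, with r = 0.82 for Dppa3 over the same libraries.

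Bcl2l11 and Bmf, the other BH3-only members, did not pass in any contrast. BIM, the product of Bcl2l11, binds all anti-apoptotic members, and BMF binds several of them. Bcl2l11 ran from 44.7 to 54.7 CPM in lower-range and 40.5 to 54.2 CPM in upper-range vehicle. It ran from 47.9 to 62.9 CPM with MEHP, 44.3 to 60.0 with ATRA and 44.2 to 57.0 with both. Its largest estimate was 0.20 ± 0.08 with MEHP (adjusted p = 0.22). Bmf lay between 51.2 and 78.5 CPM in all 30 libraries, and its estimates against vehicle were 0.06 ± 0.08 with MEHP, −0.06 ± 0.07 with ATRA and −0.07 ± 0.08 with both.

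The effectors Bax and Bak1 did not pass in any contrast either. Their products form the pore in the outer mitochondrial membrane. Bax ran from 92.9 to 127 CPM in lower-range vehicle, 89.4 to 101 in upper-range vehicle, 88.3 to 98.1 with MEHP, 89.2 to 103 with ATRA and 94.8 to 112 with both. Its estimates were −0.04 ± 0.06 with MEHP, −0.11 ± 0.06 with ATRA and −0.05 ± 0.06 with both. Bak1 ran from 33.4 to 51.5 CPM over all libraries, with estimates of 0.02 ± 0.07, −0.08 ± 0.07 and −0.07 ± 0.07.

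Among the anti-apoptotic members, Bcl2 was lower with ATRA. Its product guards the mitochondrial and endoplasmic reticulum membranes and is bound by BIK and PUMA. The gene (ENSMUSG00000057329) lies on chromosome 1 from 106538178 to 106714274. Lower-range vehicle libraries ran from 19.6 through 21.1 to 24.4 CPM and upper-range ones from 18.4 through 21.7 to 22.5 CPM. ATRA libraries held 16.6, 18.8, 17.7, 18.5 and 21.1 CPM, with 4 of the 5 below every lower-range vehicle library. MEHP + ATRA libraries held 18.6, 20.4, 19.05 and 17.8 CPM, with 3 of the 4 below them. MEHP libraries ran from 19.7 through 22.1 to 25.4 CPM and overlapped vehicle.

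Bcl2 fell by 13.7% with ATRA (log2 fold change −0.21 ± 0.07, adjusted p = 0.024), a call lost without ATRA replicate 1, 3 or 4 or vehicle replicate 15, at adjusted p values of 0.0506 to 0.0898, and with no filter on low counts (0.0535). With both compounds it had −0.18 ± 0.07 (adjusted p = 0.063), with MEHP 0.10 ± 0.07 (adjusted p = 0.55), and with both against MEHP −0.28 ± 0.10 (adjusted p = 0.082). The lower interstitial progenitor sum given above stood beside this difference too. The ratio of Bax to Bcl2 per kb had medians of 28.4 in lower-range vehicle, 29.8 with ATRA and 29.9 with both, and of 25.0 in upper-range vehicle and 24.5 with MEHP. These ratios overlapped between all sets.

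Mcl1 was slightly higher with both compounds. Its product is a short-lived guard that binds BAK, BIM and NOXA. The gene (ENSMUSG00000038612) lies on chromosome 3 from 95658788 to 95663176. Lower-range vehicle libraries ran from 135 through 148 to 155 CPM. The MEHP + ATRA libraries held 160, 159, 166 and 164 CPM, all above them, though within the 141 to 168.5 CPM of upper-range vehicle. ATRA libraries held 159, 159, 154, 155 and 146 CPM and MEHP libraries ran from 139 through 160 to 166 CPM, both overlapping vehicle.

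The rise of Mcl1 with both was 10.4% (log2 fold change 0.14 ± 0.05, adjusted p = 0.020). It was lost without MEHP + ATRA replicate 3 (adjusted p = 0.070) or 4 (0.060), without the range term (0.067) and with no filter on low counts (0.05035). With ATRA it had 0.07 ± 0.04 (adjusted p = 0.29) and with MEHP 0.02 ± 0.05 (adjusted p = 0.93). Bcl2l1 ran from 67.3 to 104.5 CPM in vehicle, and its estimates were −0.13 ± 0.09 with MEHP, 0.08 ± 0.09 with ATRA and 0.01 ± 0.09 with both.

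**Figure D4:**
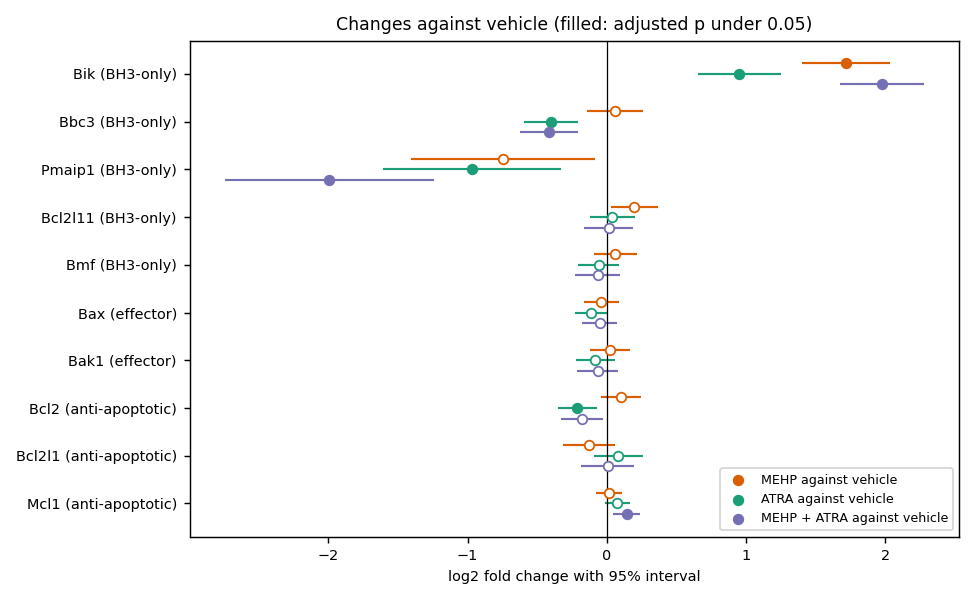
Log2 fold change of each member against vehicle with its 95% interval, for MEHP, ATRA and both compounds, filled where the adjusted p was under 0.05 (edgeR). Bik lies right of 0 in all 3 comparisons and Pmaip1 left of it, down to −1.99 with both, while the intervals of the members that were never filled lie between −0.31 and 0.37.

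In all, 1 member was higher and 0 lower with MEHP, where 2.88% of the tested genes were called higher and 1.84% lower. With ATRA 1 was higher and 3 lower, beside 9.06% and 9.03% of tested genes. With both, 2 were higher and 2 lower, beside 14.3% and 14.7%. The member counts are small and no excess over the background was tested. The median log2 fold change of the 10 members was 0.04 with MEHP, −0.07 with ATRA and −0.06 with both, against −0.01, −0.00018 and −0.01 over all tested genes. Both compounds against ATRA called 1 member (Bik, background 3.0%), and both against MEHP called 1 (Bbc3, background 8.29%).

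Comparisons with vehicle share control libraries, and ATRA and MEHP + ATRA share the same 9. The interaction called 0 members with edgeR, DESeq2 and limma-voom (background 0.0311%), and 1, Bik, had an unadjusted p under 0.05. The title ranges, compared within vehicle, called 0 members with the same 3 tools (background 0.373%), and 1, Bax, had an unadjusted p under 0.05 (−0.14 ± 0.05, adjusted p = 0.26). For the 5 members never called against vehicle (Bcl2l11, Bmf, Bax, Bak1 and Bcl2l1), the 15 estimates ran from −0.13 to 0.20 and their 95% intervals reached from −0.31 to 0.37.

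Genes most like the other called members were named by the same rule of highest Pearson r over 30 libraries, as a description. For Bik they were Tinagl1 (r = 0.958), which encodes a matricellular protein, the ETS factor gene Etv4 (0.949) and the aldehyde dehydrogenase gene Aldh9a1 (0.948), with Spearman's rho of 0.893, 0.901 and 0.886. Within the 15 vehicle libraries Pearson r was 0.390, 0.385 and 0.159, and Spearman's rho was 0.307, 0.371 and 0.179. Like Bik, all 3 were called higher in each comparison with vehicle. Etv4 rose by 1.56 ± 0.13 with MEHP, 1.45 ± 0.12 with ATRA and 2.40 ± 0.12 with both, on the log2 scale. Tinagl1 rose by 1.28 ± 0.09, 0.91 ± 0.09 and 1.87 ± 0.09, and Aldh9a1 by 0.61 ± 0.06, 0.47 ± 0.05 and 0.90 ± 0.06.

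For Bbc3 the most alike genes included the adenylyl cyclase gene Adcy6 (r = 0.825) and the calcineurin-regulated factor gene Nfatc4 (0.811). Adcy6 was called lower with ATRA (−0.22 ± 0.06 in log2) and with both (−0.25 ± 0.06), and so was Nfatc4 (−0.40 ± 0.06 and −0.50 ± 0.07). For Bcl2 they were Nrk (0.783), the aryl hydrocarbon receptor gene Ahr (0.765) and the insulin receptor substrate gene Irs1 (0.764). For Mcl1 they were Tbc1d12 (0.826), the ubiquitin ligase gene Znrf2 (0.816) and Tmeff1 (0.799).

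Of 14 other BCL2 family genes listed, 10 were tested. With MEHP 0 were called (2 at an unadjusted p under 0.05, edgeR). With ATRA 0 were higher and 2 lower, and with both 1 was higher and 2 lower, to be read against the shares of all genes given above. Hrk, a BH3-only gene best known in neurons, fell with ATRA (log2 fold change −1.59 ± 0.30, adjusted p = 0.00016), from 8.33 ± 3.2 CPM in lower-range vehicle (SD, n = 9) to 2.77 ± 0.87 CPM (n = 5). Bok, a BAX-like effector gene, fell from 99.0 ± 5.1 to 78.4 ± 8.1 CPM (−0.34 ± 0.06, adjusted p = 0.00024).

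With both compounds Hrk (−1.66 ± 0.32) and Bok (−0.50 ± 0.07) were lower and the anti-apoptotic gene Bcl2l2 (BCL-W) was higher (0.31 ± 0.07). Hrk in upper-range vehicle ran from 3.12 to 7.74 CPM and overlapped the ATRA libraries (1.44 to 3.59 CPM). It did not overlap the MEHP + ATRA libraries (2.33 to 2.98 CPM).

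Downstream of the members, cytochrome c transcripts rose with every treatment. Of 21 apoptosome, caspase and mitochondrial death factor genes, 1 was higher and 0 lower with MEHP, 2 and 4 with ATRA, and 4 and 3 with both. The shares of all tested genes were 2.88% and 1.84% with MEHP, 9.06% and 9.03% with ATRA, and 14.3% and 14.7% with both. Cycs, which encodes cytochrome c, had 0.25 ± 0.07 with MEHP (adjusted p = 0.030), 0.32 ± 0.07 with ATRA and 0.48 ± 0.07 with both. Its 4 MEHP + ATRA libraries ran from 81.4 to 99.4 CPM, above the 54.4 to 71.6 CPM of lower-range vehicle. Upper-range vehicle ran from 60.3 to 86.7 CPM of Cycs and overlapped these and the MEHP libraries (79.3 to 87.6 CPM). The voltage-dependent anion channel gene Vdac3 rose with ATRA (0.21 ± 0.07) and with both (0.44 ± 0.07).

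Apaf1, the scaffold of the apoptosome, fell with ATRA (−0.19 ± 0.04). The initiator caspase genes Casp9 (−0.35 ± 0.09) and Casp2 (−0.20 ± 0.05) fell with both, and Casp2 also fell with ATRA (−0.15 ± 0.05). The median over the 21 genes was −0.01 with MEHP, −0.01 with ATRA and 0.01 with both, near that of all genes.

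In the death receptor pathway, which reaches BAX and BAK through BID, 9 of 11 genes were tested. With MEHP 1 was higher and 0 lower. With ATRA 1 was higher and 2 lower, and with both 2 were higher and 2 lower. These counts, too, are to be read against the shares of all genes given above. Cflar, an inhibitor of caspase-8, rose with MEHP (0.26 ± 0.06, adjusted p = 0.0041) and with both (0.28 ± 0.06). The TRAIL receptor gene Tnfrsf10b, also on the p53 target list, fell with ATRA (−0.44 ± 0.08) and with both (−0.42 ± 0.09). Tnfrsf1a, a TNF receptor gene, fell with ATRA (−0.18 ± 0.05), and the other TNF receptor gene Tnfrsf1b rose with ATRA (0.54 ± 0.15) and with both (0.76 ± 0.16). The adaptor gene Fadd fell with both (−0.21 ± 0.07).

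Of 16 transcription factor genes known to act on the family, 0 were called with MEHP (3 at an unadjusted p under 0.05, edgeR). With ATRA 1 was higher and 4 lower, and with both 2 were higher and 5 lower, against the shares of all genes given above. Myc fell with ATRA (−0.49 ± 0.10) and with both (−0.72 ± 0.10), and Stat3 did so too (−0.24 ± 0.07 and −0.29 ± 0.08). Nfkb1 fell (−0.20 ± 0.04) and Mycn rose (0.24 ± 0.08) with ATRA, and Mycn also rose with both (0.24 ± 0.08). Trp63, the p63 gene of the germline and epithelia, fell with both (−1.63 ± 0.32), from 1.18 to 2.27 CPM in lower-range vehicle to 0.326 to 0.863 CPM. Atf4, a factor of the integrated stress response, rose with both (0.53 ± 0.08, adjusted p = 2.3e-06) and against ATRA alone (0.50 ± 0.09, adjusted p = 0.00063).

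Of 21 p53 target genes outside the family, 1 was higher and 0 lower with MEHP, 2 and 6 with ATRA, and 4 and 4 with both. The shares of all genes given above apply to these counts and to those of the mesonephros markers below. Plk2, a polo-like kinase gene, rose with MEHP (0.65 ± 0.13, adjusted p = 0.0013) and with both (0.64 ± 0.13). The antiproliferative gene Btg2 fell with ATRA (−0.73 ± 0.08) and with both (−0.88 ± 0.08). The nuclease gene Aen fell with ATRA (−0.21 ± 0.05) and with both (−0.23 ± 0.05). Perp, a desmosomal membrane protein gene, rose in contrast, from 2.04 ± 0.46 CPM in lower-range vehicle to 5.54 ± 0.63 CPM with ATRA (1.44 ± 0.22) and 7.33 ± 0.80 CPM with both (1.85 ± 0.23). Of 7 mesonephros markers, Pax2 and Wt1 were higher with ATRA, and Wt1 is also a gene of the gonad's own somatic cells. With both compounds these 2 were higher and Lhx1 lower. The median log2 fold change of the 7 was −0.01 with ATRA and −0.15 with both. Their sum ran from 257.5 to 345.9 CPM with ATRA and 284.6 to 333.4 CPM with both, against 179.2 to 246.9 CPM in lower-range vehicle. The part of such cells in the level of Perp was not tested.

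**Figure D5:**
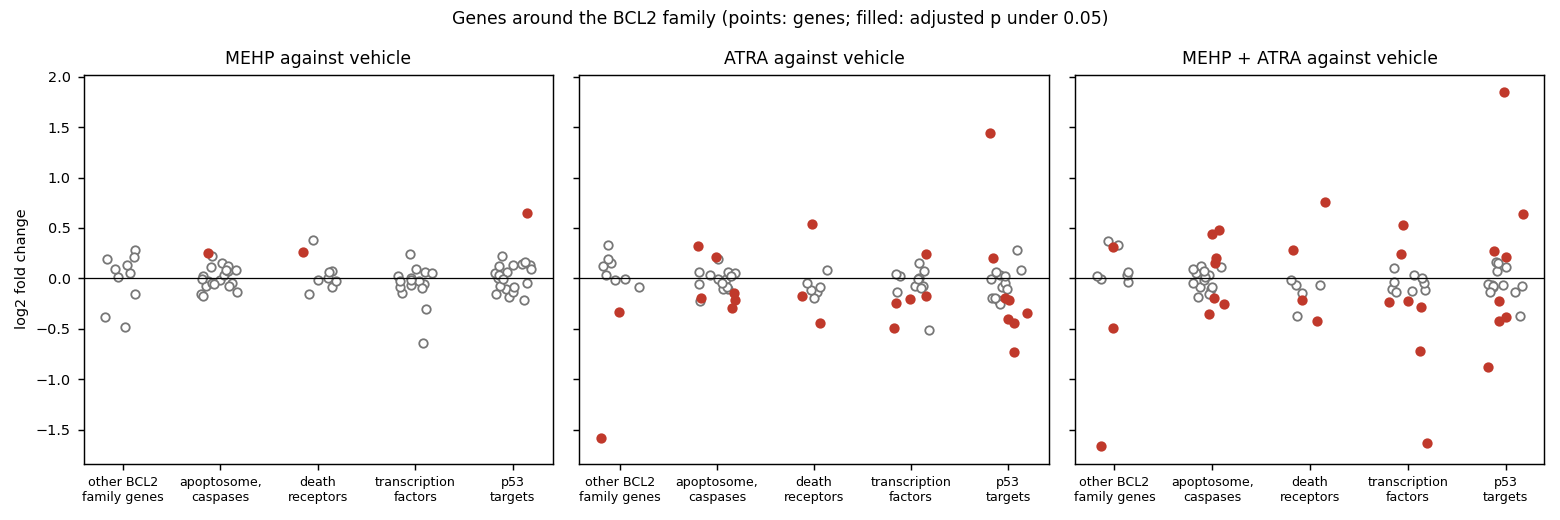
Log2 fold change against vehicle of the tested genes in 5 lists around the BCL2 family, 1 panel per treatment, with points for genes, filled where the adjusted p was under 0.05 (edgeR). With MEHP 3 points are filled in all, whereas with ATRA and with both filled points lie on both sides of 0, with Hrk lowest and Perp highest.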

How the data were processed

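For each library the authors deposited a file of raw read counts by gene in the featureCounts layout, per the file headers. The submitters' processing notes name bcl2fastq 2.20, Trimmomatic 0.36, STAR 2.5.2b, Subread 1.5.2, featureCounts and DESeq2. The build is not given, nor the strand setting, in the sources used here. Coordinates of genes are as the files give them, and 8 of 10 members had the same positions in GENCODE M21 (GRCm38). The others were Bik and Pmaip1, so the Bik stretch above comes from a release that places the gene's bounds differently.

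Genes were kept by filterByExpr (minimum count 10) in edgeR 4.0.16 (R 4.3.3), scaled by TMM, and tested by two-sided quasi-likelihood F tests with group and title-range terms (25 residual degrees of freedom), with Benjamini-Hochberg adjustment over all 19323 genes. Standard errors came from the F statistic. The fit was run on counts simulated with changes in MEHP only and no title-range effect, and only the MEHP comparison was checked. DESeq2 1.42.0, limma-voom (limma 3.58.1), other scalings and filters, no range term, replicate blocks, fewer groups and leaving out each library were alternatives. The members and lists were chosen with earlier results of these data known. Beside the members, the rule named up to 4 called genes with the smallest p per pathway list and comparison, and 3 most alike genes (mean log2 CPM of at least 1) per called member. Some genes that this rule takes are not reported here.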

Additional observations from a re-analysis of the deposited data

Results flagged for a closer look

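A total of 50 sets of 4 to 9 libraries, 1 for each member in each group and title range, were checked for a library far from the others by Dixon's test at its 95% level, and 4 were picked out. Chance picks out about 1 in 20. Bbc3 stood at 15.65 CPM in vehicle replicate 6, against 20.06 to 22.51 CPM in the other upper-range vehicle libraries. Pmaip1 was highest in that same library. Bmf stood at 51.21 CPM in vehicle replicate 3, against 64.88 to 70.16 CPM. Bak1 stood at 51.55 CPM in vehicle replicate 11, against 37.87 to 42.84 CPM, and at 36.82 CPM in ATRA replicate 1, against 38.13 to 38.47 CPM in the other ATRA libraries.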

How the results depend on the processing

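Each of 70 member values (10 members, 7 contrasts) was recomputed under up to 9 settings and 30 fits without 1 library. Of 2690 such values, 2669 stayed on their side of the threshold, 16 lost a call, 5 gained one and 0 turned direction among called values. Members called numbered 2 with MEHP and 2 in both compounds against MEHP with no range term, and 2 in both against ATRA with only the groups compared. Bcl2 in both against MEHP passed with no range term (adjusted p = 0.026) or without MEHP replicate 2 (0.043). In fits without 1 library they numbered 2 to 4 with ATRA, 3 to 4 with both and 0 to 2 in both against MEHP. The cause was not tested.

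Over all genes, MEHP called 912, but 2229 with no range term and 439 with only the groups compared. Both against MEHP called 1601, and 3181 with no range term. The interaction called 6, but 12 with DESeq2 and 10 with no range term. The ranges called 72, but 338 with DESeq2, 19 with no filter and 4 with only the groups compared. Without 1 library, genes called ran from 668 to 1151 with MEHP, 2914 to 3763 with ATRA, 4613 to 5980 with both, 340 to 689 in both against ATRA, 1307 to 1724 in both against MEHP, 3 to 8 for the interaction and 10 to 169 for the ranges.

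Libraries with the same first title number were checked for pairing: 27 pairs had correlated deviations of −0.157 to 0.797 (19 over 0.1), with a median of 0.19 against −0.016 in 90 pairs with other numbers. In the upper range, all 6 pairs of 3 of its 4 first numbers had 0.428 to 0.643. Because 8 pairs were not over 0.1, the numbers were not taken to pair the libraries, though part of them may. Libraries that share a first number may therefore not be independent. The 4 MEHP + ATRA libraries held 3 first numbers, and the 6 MEHP and 5 ATRA libraries 4 each. The 9 lower-range vehicle libraries held 5 and the 6 upper-range ones 4. With a replicate block on that number over both ranges, both against ATRA called 1371 genes (579 without), the ranges 42 and the interaction 3, and with a block within each range the interaction called 2. No member's call changed with either block. The fit of only the groups compared was not run for both against MEHP or the interaction, nor a fit of the ranges without their term or with the block within them. Bik, at 33 to 82 vehicle reads, has the least depth of the members.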
